A study of Mus musculus with 192 samples.

Results

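The 8 genes described here encode interferon regulatory factors: Irf1, Irf2, Irf3, Irf4, Irf5, Irf7, Irf8 and Irf9. They were taken by symbol from a table of 23481 genes, measured in mouse bone marrow-derived dendritic cells under 64 stimulation groups. All 8 genes passed the filter on low counts that kept 4720 genes for testing, Irf4 through 3 libraries alone.

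Interferon regulatory factors are transcription factors that share a DNA-binding domain recognising the interferon-stimulated response element. Irf3, Irf5 and Irf7 lie in the cytoplasm until pattern recognition receptors activate their kinases, and then switch on type I interferon and cytokine genes. Irf9 is the DNA-binding subunit of the complex that carries the signal of the type I interferon receptor, Irf1 activates and Irf2 mostly represses overlapping sets of interferon-responsive genes, and Irf4 and Irf8 bind DNA with Ets or AP-1 partners and guide the development of dendritic cell subsets. Several members are themselves interferon-responsive genes, so that their mRNA is both a product and a part of the pathway.

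Cells came from the bone marrow of female C57BL/6J mice aged 6 to 8 weeks and were grown with 15 ng/mL GM-CSF, a growth factor that all groups, unstimulated ones included, received. Wells of 100000 cells were stimulated for 6 hours with 7 ligands of pattern recognition receptors, which the labels call PAM, HMW, Zymosan (depleted), LPS (lipopolysaccharide), CpGB, SeV and cGAMP (3',3'-cGAMP). The groups were an unstimulated control (Ctrl), 7 single ligands, 21 pairs and 35 triplets, with 3 libraries each, and a combination is written by joining its ligands, as in PAM_LPS. No ligand doses were used here, and the labels do not say whether the 3 libraries of a group came from separate cultures or animals, so p-values measure only the spread between these libraries.

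Library totals ranged from 46564 to 610234 UMIs (molecules counted once by their molecular tag) with a median of 171616, and the Ctrl libraries were among the shallower ones, at 73431 ± 14389 UMIs (SD, n = 3). Over all libraries Irf7 had 44371 UMIs, Irf1 14200, Irf5 11007, Irf8 10368, Irf9 4743, Irf2 2101, Irf3 1245 and Irf4 530. In the Ctrl libraries together these were 34, 27, 81, 36, 16, 7, 18 and 7 UMIs, so the comparisons of Irf2, Irf3, Irf4 and Irf9 with Ctrl rest on few molecules. Defining dendritic cell markers (6 of 8 detected in most libraries, among them Itgax, Cd74 and H2-Aa, which macrophages also express) summed to 5919 CPM (UMIs scaled to a common library total) in Ctrl and to between 5454 and 6680 CPM in all groups. Within that sum Cd86 and Ccr7, which mature dendritic cells express, were lowest in Ctrl, at 41.3 and 228 CPM against medians of 243 and 425 over groups, while Itgax was at 490 CPM in Ctrl against a median of 275. The more lineage-specific Flt3 and Zbtb46 had only 95 and 99 UMIs over all libraries. Neutrophil markers summed to 740 CPM in Ctrl and to between 471 and 923 CPM over groups, while no B cell, T and NK cell or mast cell and basophil marker list summed to more than 20.3 CPM in any group. In such bulk samples, fewer cells of a type and less RNA per cell cannot be told apart. Replicate 3 of PAM_HMW_SeV, the deepest library, and replicate 3 of Zymosan_SeV stood apart from the other libraries of their groups. They did so by 6.12 and 4.00 SD (over all libraries) beyond the distance predicted from their own depth. The depth of the other libraries of a group was not allowed for, and Zymosan_SeV holds the shallowest of all (replicate 2, 46564 UMIs). Before the allowance, the log2 distance (root mean square over genes) of PAM_HMW_SeV replicate 3 was 0.533, near the 0.524 of replicate 1. Results that rest on either library are given with and without it.

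On GRCm38.p6 the genes lie at chr11:53770014-53778374 (Irf1), chr8:46739745-46847458 (Irf2), chr7:44997648-45002848 (Irf3), chr13:30749233-30766981 (Irf4), chr6:29526130-29541869 (Irf5), chr7:141263183-141266499 (Irf7), chr8:120736358-120756694 (Irf8) and chr14:55603985-55610030 (Irf9). Upstream sequences of Irf1, Irf2 and Irf8 are shown because they are the windows of the family that hold the element bound by Stat dimers. All sequences are RefSeq, build GRCm38.p6, the 250 bases before a transcription start, read 5′ to 3′ on the strand of the gene, with motif matches in capitals. The 3 motifs searched, on both strands, were GAAANNGAA (a core of the response element bound by the factors themselves), TTCNNNGAA (the element bound by Stat dimers) and GGNNTTNCC (a core of the element bound by NF-kB). No matches overlapped.
Irf1, chr11:53769764-53770013, plus strand: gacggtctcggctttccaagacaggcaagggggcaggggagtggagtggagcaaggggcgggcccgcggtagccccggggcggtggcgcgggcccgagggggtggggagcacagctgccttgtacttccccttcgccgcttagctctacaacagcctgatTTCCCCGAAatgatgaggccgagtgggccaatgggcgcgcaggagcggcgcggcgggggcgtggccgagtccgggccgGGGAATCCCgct
Irf2, chr8:46739495-46739744, plus strand: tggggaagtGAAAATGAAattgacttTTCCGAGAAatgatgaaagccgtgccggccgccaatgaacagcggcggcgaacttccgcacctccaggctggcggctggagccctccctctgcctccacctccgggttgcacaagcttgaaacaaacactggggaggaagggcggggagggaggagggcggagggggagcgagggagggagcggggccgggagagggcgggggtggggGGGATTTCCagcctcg
Irf8, chr8:120736108-120736357, plus strand: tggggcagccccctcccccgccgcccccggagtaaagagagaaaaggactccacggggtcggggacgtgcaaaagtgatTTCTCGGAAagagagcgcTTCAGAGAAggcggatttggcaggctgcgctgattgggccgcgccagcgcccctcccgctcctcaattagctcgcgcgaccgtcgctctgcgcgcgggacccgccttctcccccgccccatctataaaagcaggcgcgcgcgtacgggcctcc
The Irf1 window holds the Stat element at -90 to -82 from the start and the NF-kB core, on the opposite strand, at -12 to -4. The Irf2 window holds the response element core at -241 to -233, the Stat element at -224 to -216 and the NF-kB core at -16 to -8. In the Irf8 window there are 2 Stat elements, at -171 to -163 and at -153 to -145. Among the 11 upstream windows of the 8 genes in the RefSeq table, 1, 3 and 5 hold the respective motifs, against 7.13%, 7.02% and 13.5% of all 32851 windows of that length. The windows of Irf4, Irf7 and Irf9 hold none of the 3 motifs. Of the windows not shown, the other one of Irf1 also holds none, and the other one of Irf8 holds an NF-kB core alone. A match describes letters and no binding, and no match says only that these letters are not in this window.

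With single ligands, some members were called higher and others had no call. With SeV, Irf1, Irf2, Irf7, Irf8 and Irf9 were called higher, and with cGAMP Irf1, Irf2, Irf7 and Irf9. Irf1, Irf7 and Irf9 were called with LPS, Irf7 and Irf9 with CpGB, Irf9 alone with PAM and Irf7 alone with HMW. Zymosan moved no member past the threshold. Irf5 had no call but was higher with cGAMP and SeV by less than the fold threshold (log2 fold changes 0.75 and 0.60). Irf3 and Irf4, also without a call, had few UMIs in Ctrl. No member was called lower with any single ligand. A gene was called when edgeR's quasi-likelihood test gave an adjusted p under 0.05 and the fold change was at least 1 on the log2 scale. All 7 comparisons share the Ctrl libraries.

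Of the 8 members, 5 were called with SeV, where 15.6% of all 4720 tested genes were called, 4 with cGAMP (17.6% of all genes), 3 with LPS (24.2%), 2 with CpGB (17% of all genes), 1 with PAM (13.9%), 1 with HMW (0.975%) and 0 with Zymosan (6.25%). With Zymosan 1 member, Irf7, had an unadjusted p under 0.05, and DESeq2 also called none. The median log2 fold change of the 8 members was 1.26 with SeV, 1.03 with cGAMP, 1.00 with LPS and 0.52 with CpGB, where the median of all tested genes was -0.08, -0.09, -0.06 and -0.03. With PAM, HMW and Zymosan it was -0.18, 0.24 and -0.20, where the median of all tested genes was 0.03, 0.03 and 0.02.

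**Figure D1:**
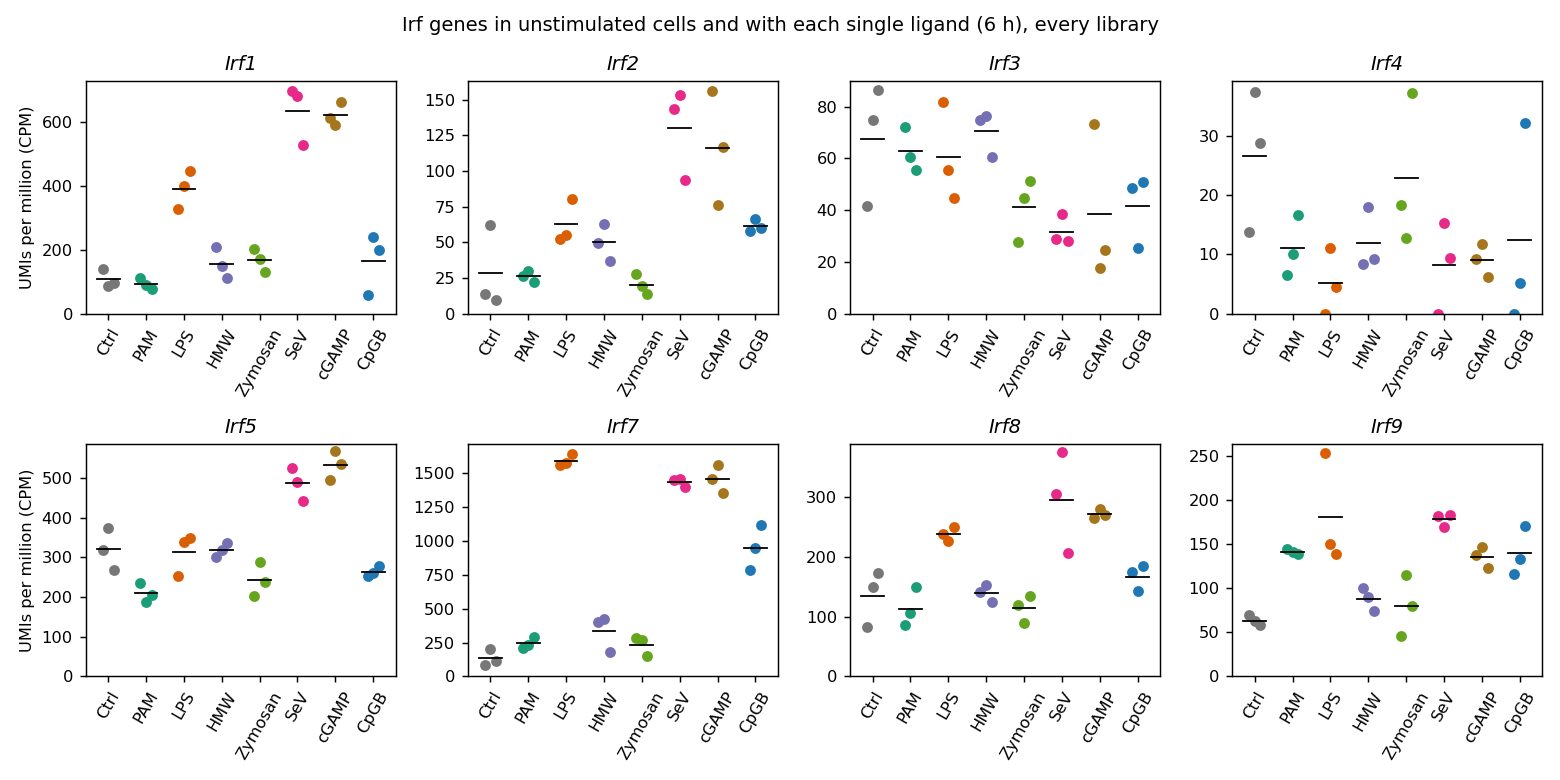
Scaled CPM (the UMIs of a gene scaled to the total of its library) of each member on the vertical axis, in Ctrl and the 7 single-ligand groups; points are the 3 libraries of a group and horizontal lines their mean, and each panel has its own scale. The SeV, cGAMP and LPS libraries of Irf7 and Irf1 lie above every Ctrl library, and Irf3 and Irf4 have no call.

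Irf7, the factor that amplifies type I interferon production, gave the largest single-ligand changes of the family. Its level was 83.1, 200 and 115 CPM in the 3 Ctrl libraries, 1563, 1574 and 1642 with LPS, 1453, 1456 and 1402 with SeV, and 1458, 1560 and 1356 with cGAMP. Each of these 9 stimulated libraries lay above all Ctrl libraries. The log2 fold changes were 3.58 (SE 0.31, adjusted p = 6.36e-32), 3.43 (SE 0.31, adjusted p = 8.19e-29) and 3.45 (SE 0.31, adjusted p = 2.49e-29), that is 12-, 10.8- and 10.9-fold. CpGB gave 786, 950 and 1116 CPM, also apart from Ctrl, and a log2 difference of 2.86 (SE 0.31, adjusted p = 1.4e-20).

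The other 3 ligands left Irf7 at much lower levels. HMW gave 399, 421 and 181 CPM, so that its lowest library lay below the highest of Ctrl, and the log2 fold change of 1.30 (SE 0.33, adjusted p = 0.00387) lost its call in 6 of 16 alternative analyses, among them without Ctrl replicate 1 (1.11), Ctrl replicate 3 (1.21) or HMW replicate 2 (1.05). PAM gave 210, 231 and 294 CPM, all above Ctrl, and a log2 difference of 0.89 (SE 0.33, adjusted p = 0.0361) that was under the fold threshold but called without Ctrl replicate 2 (1.31) or PAM replicate 1 (1.01). Zymosan gave 285, 269 and 149 CPM (0.75, SE 0.34, adjusted p = 0.16), a value that was called without Zymosan replicate 3 (1.09).

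Tested against each other, LPS, SeV and cGAMP did not differ in Irf7 past the threshold: the log2 differences were 0.15 (SE 0.15, adjusted p = 0.624) between LPS and SeV, 0.13 (SE 0.15, adjusted p = 0.689) between LPS and cGAMP and -0.02 (SE 0.15, adjusted p = 0.985) between SeV and cGAMP. The LPS libraries nonetheless lay above all 3 of SeV and all 3 of cGAMP. CpGB was lower than LPS, which was higher by 0.72 (SE 0.15, adjusted p = 0.00029), a difference under the fold threshold. Over the 21 comparisons between single ligands, 48 of 168 member values (28.6%) were called, where 13.7% of all genes' values were. Irf1 and Irf7 had 12 such calls each, Irf2 9, Irf8 7, Irf5 and Irf9 4 each, and Irf3 and Irf4 none.

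Over all 64 groups the level of Irf7 went with the ligands present, in 2 ranges that overlap. The 8 groups with none of LPS, SeV, cGAMP and CpGB had means from 132.6 to 996.3 CPM with a median of 290, and the 56 groups with at least 1 of these ligands had means from 494.1 to 2416.3 CPM with a median of 1560. Ctrl was the lowest of all groups, and PAM_Zymosan the lowest stimulated one, at 126, 155 and 130 CPM. The highest was PAM_LPS, at 1786, 2666 and 2797 CPM. PAM_HMW_SeV came next at 1373, 1697 and 3132 CPM, a place that rests on replicate 3. Against Ctrl its log2 fold change was 3.99 with that library and 3.60 (adjusted p = 2.22e-33) without it.

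Irf1, an activator of antigen presentation and antiviral genes, rose most with SeV and cGAMP. The Ctrl libraries stood at 139, 87.3 and 96.0 CPM, the SeV libraries at 698, 682 and 530 and the cGAMP libraries at 614, 590 and 663. The log2 fold changes were 2.56 (SE 0.31, adjusted p = 6.04e-17) and 2.55 (SE 0.31, adjusted p = 4.99e-17), and the difference between both ligands was 0.00 (SE 0.17, adjusted p = 1). LPS, at 328, 399 and 447 CPM, raised Irf1 by a log2 value of 1.91 (SE 0.31, adjusted p = 1.11e-09) and lay below SeV by 0.65 (SE 0.17, adjusted p = 0.00319), with no overlap between the libraries of LPS and those of SeV or cGAMP.

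With CpGB, Irf1 spread widely, at 58.2, 240 and 198 CPM, and the log2 fold change of 0.79 (SE 0.33) had an adjusted p of 0.0599. It was called without CpGB replicate 1 (1.18) or Ctrl replicate 1 (1.07). PAM had the lowest Irf1 of all 64 groups, at 112, 90.5 and 77.8 CPM, overlapping the Ctrl libraries (log2 fold change -0.19, SE 0.36, adjusted p = 0.795). HMW_cGAMP had the highest, at 767, 746 and 790 CPM. In the 38 groups with SeV or cGAMP the means ran from 338 to 768 CPM, in the 26 with neither from 93.3 to 566.

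Irf2, the partner that mostly represses Irf1 targets, was low in Ctrl, at 13.9, 62.4 and 9.60 CPM, or 7 UMIs in all. SeV gave 143, 153 and 93.8 CPM, the highest group mean, and cGAMP 156, 76.0 and 117 CPM, both above every Ctrl library. The log2 fold changes were 2.16 (SE 0.61, adjusted p = 0.00061) and 2.00 (SE 0.62, adjusted p = 0.0018). Without Ctrl replicate 2, which held 5 of the 7 UMIs, they were 3.44 and 3.29. The cGAMP call was lost without Ctrl replicate 3 (1.56), without every replicate 3 and after thinning to equal depth. LPS and CpGB, at 1.22 (adjusted p = 0.0961) and 1.16 (adjusted p = 0.153), were called without Ctrl replicate 2, at 2.50 and 2.48. The SeV call was kept in all 15 alternatives. Zymosan had the lowest group, at 27.6, 19.2 and 14 CPM.

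Irf9, the DNA-binding subunit of the interferon-activated complex, was called higher with 5 of 7 single ligands, as many as Irf7, each time by 1.11 to 1.5 on the log2 scale. In Ctrl it was the lowest of all groups, at 69.3, 62.4 and 57.6 CPM. With SeV it reached 182, 169 and 183 CPM (log2 fold change 1.5, SE 0.41, adjusted p = 0.00114), a call kept in all 16 alternatives. With LPS it reached 253, 150 and 139 CPM (1.46, SE 0.41, adjusted p = 0.000753), a call lost in 1 of 16, after thinning (adjusted p = 0.08).

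The values for Irf9 were 1.17 with PAM (SE 0.41, adjusted p = 0.0198), 1.11 with cGAMP (SE 0.42, adjusted p = 0.0295) and 1.20 with CpGB (SE 0.41, adjusted p = 0.013), and each of these 3 calls was lost in 5 to 8 of 16 alternatives. PAM was not called without Ctrl replicate 2 (1.21) or 3 (1.12), cGAMP without Ctrl replicate 2 (1.19) or 3 (1.11) or cGAMP replicate 2 (1.10), and CpGB without CpGB replicate 3 (1.06). Its libraries lay above those of Ctrl in all 5 groups. The highest group was PAM_SeV, at 254, 238 and 133 CPM.

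Irf8, which specifies cDC1 and other myeloid lineages, stood at 83.1, 150 and 173 CPM in Ctrl. SeV gave 306, 376 and 206 CPM (log2 fold change 1.02, SE 0.32, adjusted p = 0.00863), all above Ctrl, but the value sat on the fold threshold and the call was lost in 8 of 16 alternatives, among them without Ctrl replicate 1 or SeV replicate 2 (0.85 each). cGAMP gave 266, 280 and 270 CPM (0.96, SE 0.32, adjusted p = 0.0128) and LPS 238, 227 and 250.6 CPM (0.77, SE 0.32, adjusted p = 0.0434), both under the fold threshold and without overlap with Ctrl. Without Ctrl replicate 3 both were called, at 1.28 and 1.08, and cGAMP also without any of its own libraries or Ctrl replicate 2 (1.00 to 1.09). PAM had the lowest Irf8 of all groups, at 85.3, 106 and 150 CPM.

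Irf5, an activator of inflammatory cytokine genes downstream of Myd88, moved in both directions by less than the fold threshold. Ctrl stood at 319, 374 and 269 CPM. cGAMP gave 495, 567 and 534 CPM (0.75 on the log2 scale, SE 0.19, adjusted p = 0.00106) and SeV 526, 491 and 441 CPM (0.60, SE 0.20, adjusted p = 0.017), all above Ctrl. PAM gave 236, 186 and 206 CPM (-0.61, SE 0.21, adjusted p = 0.0339), all below Ctrl.

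The extremes of Irf5 were pairs. PAM_Zymosan was lowest, at 137, 147.3 and 120 CPM, a fall of 1.25 on the log2 scale (log2 fold change -1.25, SE 0.25, adjusted p = 1.28e-05). HMW_SeV was highest, at 594, 612 and 556 CPM.

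Irf3, which is present before stimulation and acts through phosphorylation, and Irf4, a factor of cDC2-type cells, were at the limit of these libraries. Irf3 had 41.6, 74.8 and 86.4 CPM in Ctrl and 28.7, 38.3 and 28.1 with SeV, without overlap but with an adjusted p of 0.134 (log2 fold change -1.14, SE 0.55). With cGAMP its libraries were at 73.4, 17.5 and 24.6 CPM. The log2 fold change of Irf3, cGAMP vs Ctrl, was -1.01 (adjusted p = 0.169), and without cGAMP replicate 1 it was -1.64 and called. Its lowest group was HMW_Zymosan_cGAMP, at 0, 11.1 and 19.9 CPM, from 5 UMIs. Irf4 was lowest with LPS, at 0, 11.1 and 4.47 CPM, from 3 UMIs (log2 fold change -2.15, SE 1.13, adjusted p = 0.0947), and highest in PAM_Zymosan, at 73.7, 66.3 and 25.0 CPM, from 21 UMIs.

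Pairs and triplets held more calls than single ligands, among the members and among all genes. Over the 7 single ligands 16 of 56 member values were called (28.6%, where 13.7% of all genes' values were). Against Ctrl, 72 of 168 member values over the 21 pairs were called (42.9%, where 22.2% of all genes' values were), 69 higher and 3 lower. Over the 35 triplets 140 of 280 were called (50%, against 25.9% for all genes), 130 higher and 10 lower. Irf7 was higher in 20 pairs, all but PAM_Zymosan, and in all 35 triplets. Irf1 was higher in 17 pairs and 33 triplets, Irf9 in 14 and 27, Irf8 in 9 and 24, and Irf2 in 9 and 11.

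The lower calls were nearly all of Irf3. It fell in PAM_LPS, to 27.3, 10.7 and 35.5 CPM (log2 fold change -1.42, SE 0.54, adjusted p = 0.0243), in PAM_SeV, to 37.6, 19.3 and 0 CPM (-1.96, SE 0.67, adjusted p = 0.00792), and in 10 triplets, of which 8 held cGAMP, as 15 of all 35 do. The third lower call in pairs was Irf5 in PAM_Zymosan, and Irf4 had no call in any pair or triplet.

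**Figure D2:**
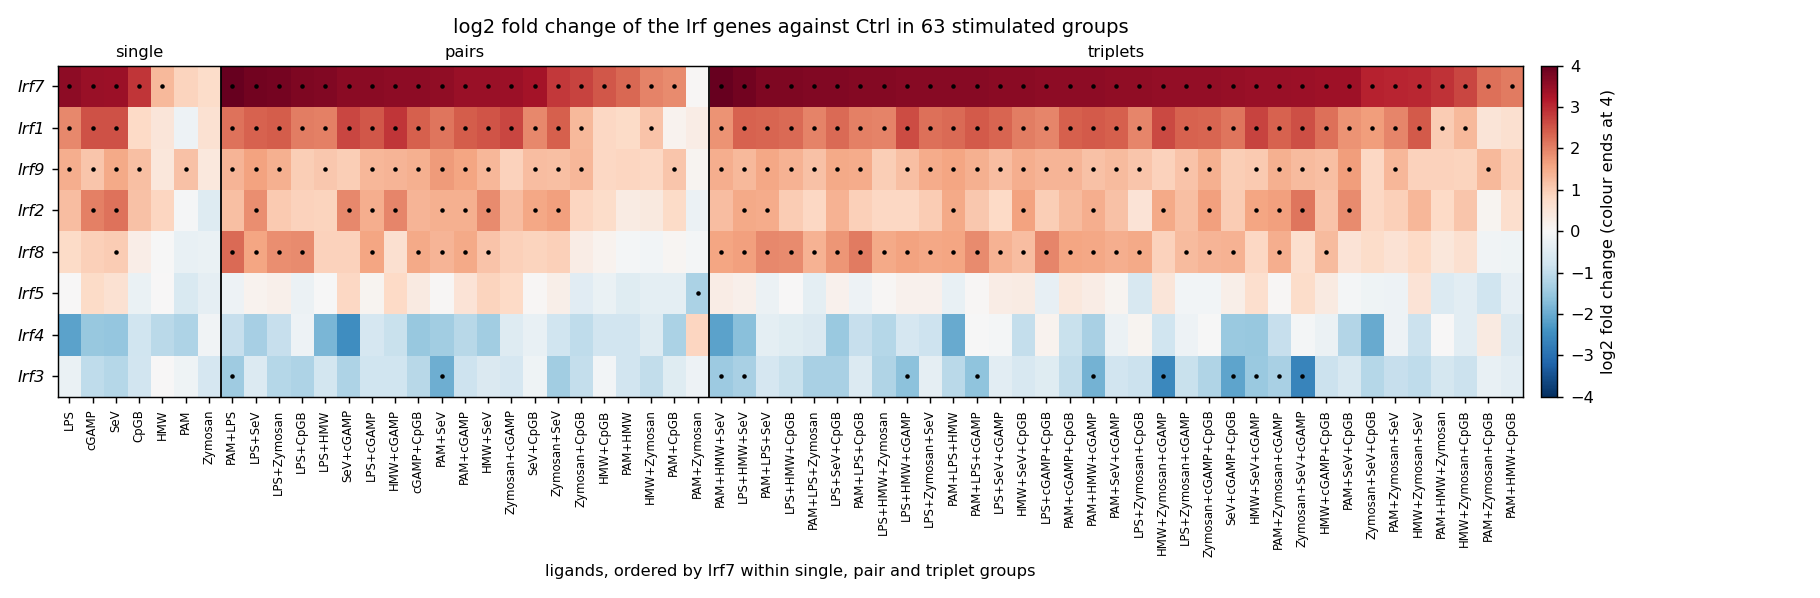
Log2 fold change against Ctrl of the 8 members (rows) in the 63 stimulated groups (columns, single ligands, then pairs, then triplets); dots mark calls. The Irf7 row is dotted in all 35 triplets, Irf1 in 33, and the Irf3 row holds the lower calls of the triplets.

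The average effect of a ligand, taken over the 22 backgrounds it was added to (Ctrl, 6 single ligands and 15 pairs), was called at an adjusted p under 0.05 and a size of at least 0.5 on the log2 scale. LPS raised Irf1 by 0.71 (SE 0.04), Irf7 by 1.20 (SE 0.04) and Irf8 by 1.09 (SE 0.05). These are 3 of 8 members, where 26% of all genes were called. SeV raised Irf1 by 0.80 (SE 0.04), Irf2 by 0.61 (SE 0.09), Irf7 by 0.87 (SE 0.04) and Irf8 by 0.51 (SE 0.05), 4 of 8 against 10.5% of all genes. cGAMP raised Irf1 by 1.06 (SE 0.04), Irf7 by 0.95 (SE 0.04) and Irf8 by 0.64 (SE 0.05) and lowered Irf3 by -0.53 (SE 0.12, adjusted p = 3.04e-05), 4 of 8 against 24.6%. The Irf3 call was lost after thinning (-0.39) and without every replicate 1 (-0.49).

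With Zymosan the average of Irf4 was 0.66 (SE 0.20, adjusted p = 0.00214), and 12.4% of all genes were called. Irf4 had passed the filter on low counts through 3 libraries alone, all with Zymosan (replicates 1 and 2 of PAM_Zymosan and replicate 3 of PAM_Zymosan_CpGB), so that it was tested because of groups in which it was high, and its call is given as a description. It was lost without every replicate 3 and after thinning through its p-value, since the value stayed between 0.56 and 1.13 in all 9 alternatives. PAM, HMW and CpGB had 0 members called by edgeR, against 12.4%, 0.381% and 11.2% of all genes, and 0 by DESeq2, although 5, 2 and 5 members had an unadjusted p under 0.05. Several averages under the size of 0.5 had a low adjusted p. Irf5 had values in both directions, 0.47 with cGAMP (SE 0.04, adjusted p = 1.25e-25) and 0.33 with SeV (SE 0.04, adjusted p = 2.39e-14), but -0.37 with PAM (SE 0.04, adjusted p = 8.51e-17), -0.25 with CpGB (adjusted p = 1.73e-08) and -0.24 with Zymosan (adjusted p = 3.73e-08). Irf2 had 0.48 with cGAMP (SE 0.09, adjusted p = 8.62e-07), and Irf1 -0.22 with PAM (SE 0.04, adjusted p = 4.64e-06). For Irf7 the average was 0.31 with HMW (SE 0.04, adjusted p = 6.05e-13) and 0.41 with CpGB (SE 0.04, adjusted p = 3.09e-21). The SeV average on Irf8 fell under 0.5 with RLE size factors, with library size alone and with DESeq2, at 0.44 to 0.49.

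**Figure D3:**
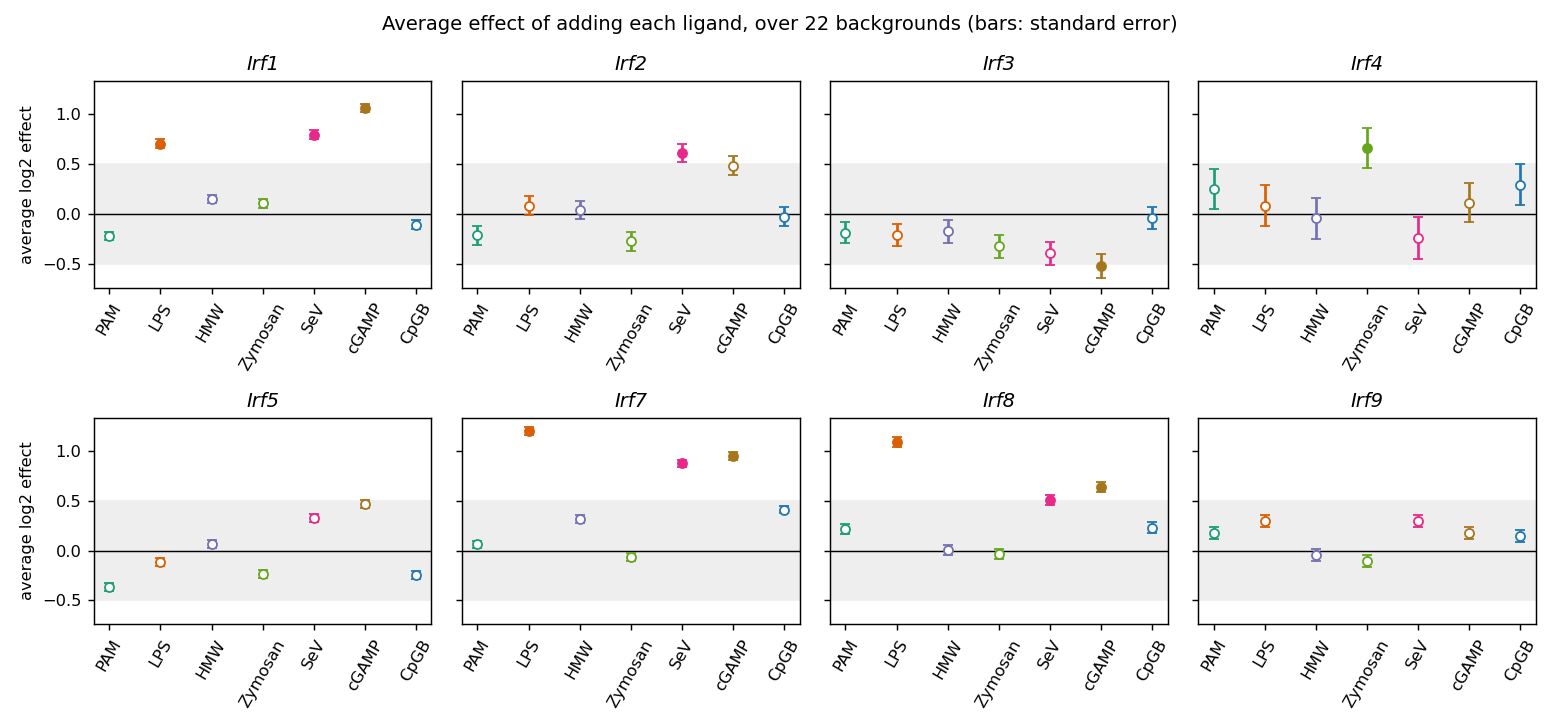
Average log2 effect of each ligand on each member over 22 backgrounds, with bars for 1 SE; filled points are calls and the grey band spans changes under 0.5. LPS, SeV and cGAMP have filled points for Irf1, Irf7 and Irf8, and the filled points of Irf3 (cGAMP) and Irf2 (SeV) lie on opposite sides of 0.

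Added to 1 other ligand, a ligand moved members in 84 of 336 cases (25%, against 10.2% for all genes), 72 higher and 12 lower, at an adjusted p under 0.05 and a log2 change of at least 0.5. Added to a pair, it did so in 111 of 840 cases (13.2%, against 5.18%), 85 higher and 26 lower. Each count holds 1 call of Irf4, Zymosan onto PAM (2.08) and cGAMP onto PAM_Zymosan (-1.80). Both steps use PAM_Zymosan, and Irf4 passed the filter on low counts through libraries of PAM_Zymosan and PAM_Zymosan_CpGB alone. These calls are therefore given as a description. For Irf7 the median step was smaller with more ligands already present. The log2 change of Irf7 with LPS was 3.58 over Ctrl, with a median of 1.64 over the 6 single ligands and of 0.40 over the 15 pairs. Over pairs its effect ranged from 0.00 onto SeV_cGAMP to 3.66 onto PAM_Zymosan.

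For Irf1 the corresponding medians for cGAMP were 1.83 onto single ligands and 0.27 onto pairs, and for SeV 1.44 and 0.24. For Irf8 the steps of LPS were positive on all 6 single ligands, with a median of 1.27, and on all 15 pairs, with a median of 0.88, as those of Irf7 with LPS also were (medians 1.64 and 0.40). Its step onto PAM was 2.54 (SE 0.25, adjusted p = 1.09e-21), onto Zymosan 2.12 (SE 0.26, adjusted p = 1.09e-14) and onto CpGB 1.62 (SE 0.23, adjusted p = 5.52e-10), beside 0.77 over Ctrl. These p-values test a step against 0. The difference from the step over Ctrl is the interaction of the pair, which was called in PAM_LPS and LPS_Zymosan and not in LPS_CpGB (0.85, SE 0.39, adjusted p = 0.166).

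**Figure D4:**
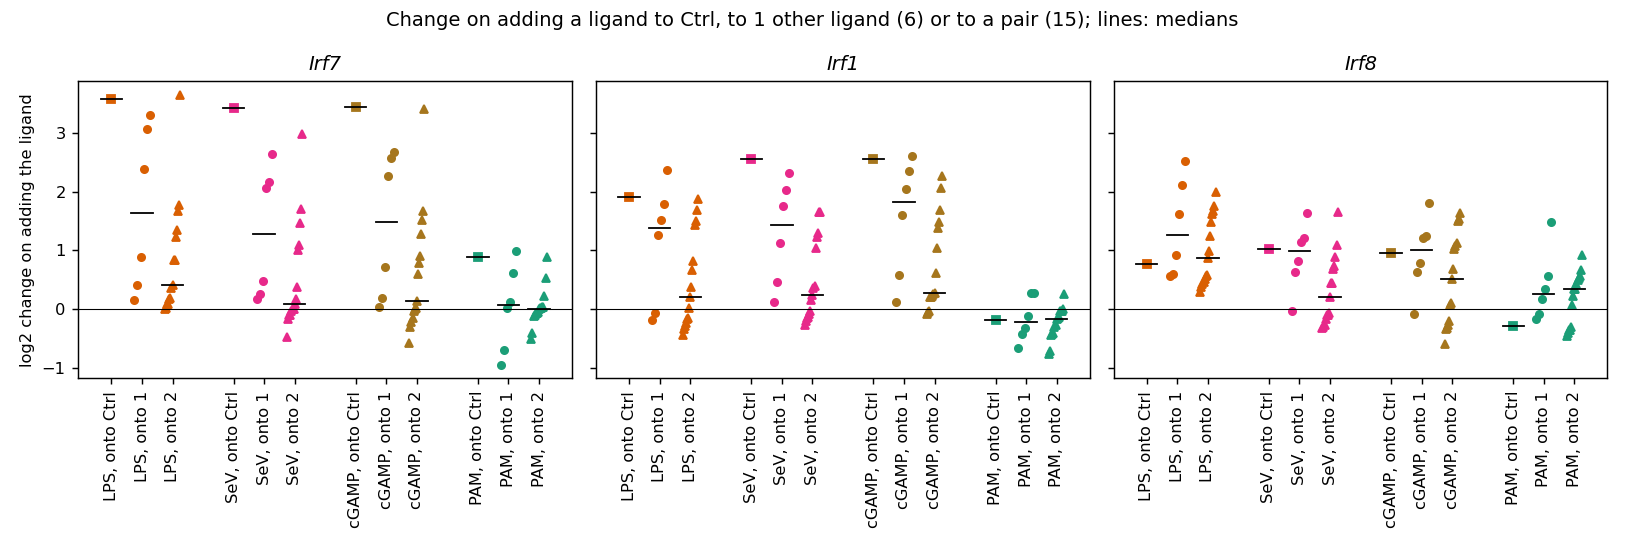
Log2 change of Irf7, Irf1 and Irf8 when LPS, SeV, cGAMP or PAM was added to Ctrl, to 1 other ligand or to a pair; each point is 1 background and horizontal lines are medians. The Irf7 medians for LPS drop from 3.58 to 1.64 and 0.40.

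For Irf5, 5 steps onto single ligands and 13 onto pairs were lower, against 8 and 11 higher. PAM lowered it onto HMW (-0.51, SE 0.18), Zymosan (-0.88, SE 0.23) and SeV (-0.55, SE 0.18), LPS lowered it onto cGAMP (-0.64, SE 0.17) and CpGB lowered it onto SeV (-0.55, SE 0.18). CpGB onto SeV also lowered Irf1, from 698, 682 and 530 CPM to 401, 414 and 383 (-0.64, SE 0.18, adjusted p = 0.00687), with no overlap. Zymosan onto PAM lowered Irf9 by -1.06 (SE 0.34, adjusted p = 0.0267), to 42.1, 95.8 and 59.9 CPM.

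An interaction compares a pair with the sum of both log2 changes of its single ligands. Of 168 member values, 22 were called at an adjusted p under 0.05 (13.1%, against 4.58% for all genes), 20 below the sum and 2 above. Below was also the more common direction among all genes, with 3470 called values below and 1070 above. Irf7 held 11 of those below, Irf1 and Irf9 4 each and Irf2 1. Of the Irf9 calls, LPS_SeV was lost in 7 of 9 alternatives, SeV_CpGB in 6, SeV_cGAMP in 2 and LPS_CpGB after thinning alone, and Irf1 in SeV_CpGB and Irf7 in PAM_Zymosan were lost in 3 of 9 each. The largest were of Irf7 in LPS_cGAMP (-3.42, SE 0.34, adjusted p = 2.09e-21), SeV_cGAMP (-3.27, SE 0.34, adjusted p = 1.66e-19) and LPS_SeV (-3.16, SE 0.34, adjusted p = 9.82e-19). In LPS_cGAMP Irf7 stood at 1663, 1529 and 1697 CPM, which overlaps the libraries of LPS alone.

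For Irf1 the interaction was -2.43 (SE 0.35, adjusted p = 5.17e-11) in SeV_cGAMP, -2.10 (SE 0.35, adjusted p = 5.34e-08) in LPS_SeV and -1.97 (SE 0.35, adjusted p = 2.9e-07) in LPS_cGAMP. Irf2 had -2.23 in SeV_cGAMP (SE 0.70, adjusted p = 0.00837), a call lost in 3 of 9 alternatives, with values from -3.85 to -1.75. The Irf7 values of HMW_SeV (-1.27, adjusted p = 0.044) and Zymosan_SeV (-1.35, adjusted p = 0.0404) were small by comparison and lost their calls in 5 of 9 and 7 of 10 alternatives. Without replicate 3 of Zymosan_SeV the latter was -1.35 with an adjusted p of 0.0794.

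Irf8 was the member with pairs above the sum. In PAM_LPS it stood at 410, 817 and 709 CPM, the highest of all groups, against 85.3 to 150 CPM with PAM and 227 to 250.6 with LPS. The interaction was 1.76 (SE 0.40, adjusted p = 0.000877), and it lost its call without every replicate 2 (1.34, adjusted p = 0.109). In LPS_Zymosan the libraries were at 293, 714 and 486 CPM, with an interaction of 1.34 (SE 0.41, adjusted p = 0.0449). That call was lost in 6 of 12 alternatives, among them without LPS_Zymosan replicate 2 (0.93) or 3 (1.35).

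**Figure D5:**
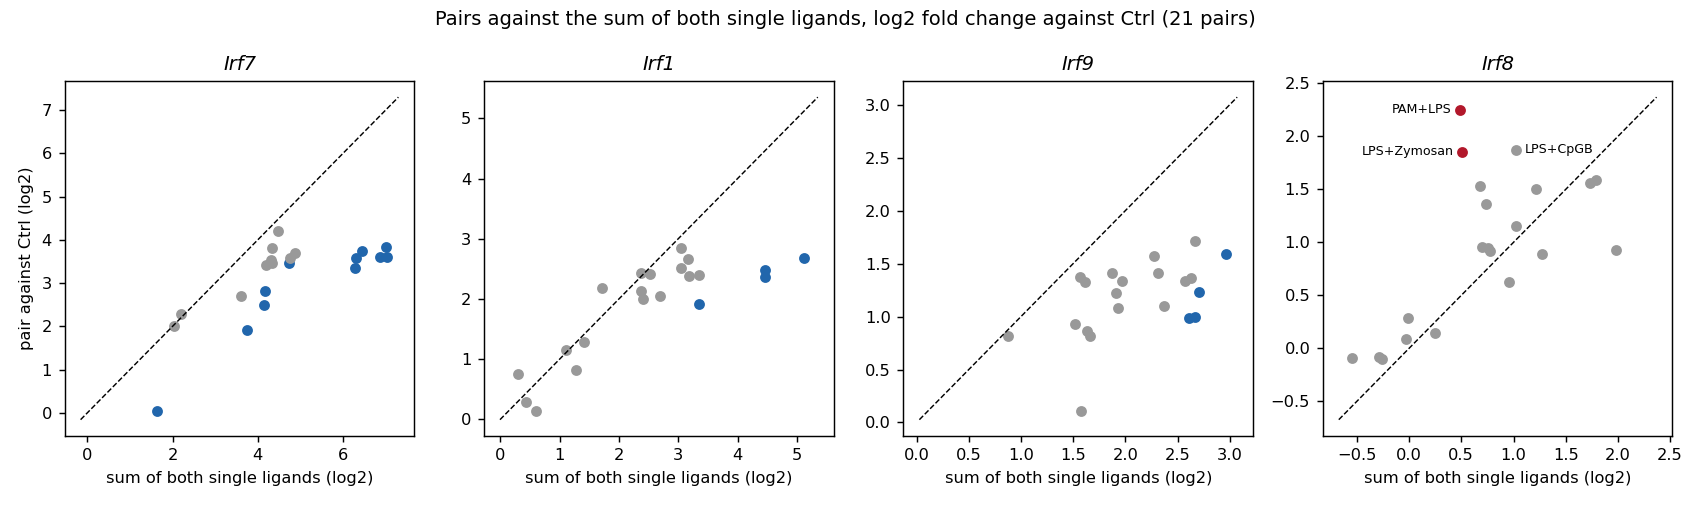
Log2 change against Ctrl observed in each of the 21 pairs (vertical) against the sum of both single-ligand changes (horizontal) for Irf7, Irf1, Irf9 and Irf8; blue points are called below the sum, red above it, and the line marks equality. All 11 blue points of Irf7 lie below the dashed line, and the 2 red points are of Irf8.

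Triplet interactions, which set a triplet against its pairs and single ligands, were called for 12 of 280 member values (4.29%, against 0.933% for all genes). Among all genes 1327 of the called values were positive and 215 negative. Irf7 had 9, all positive, the largest in LPS_SeV_cGAMP (3.00, SE 0.40, adjusted p = 2.39e-11), where it stood at 1626, 1643 and 1632 CPM, near the level of each single ligand. Of these 9, LPS_HMW_CpGB lost its call in 5 of 9 alternatives, PAM_Zymosan_CpGB in 3, and PAM_SeV_CpGB and PAM_cGAMP_CpGB in 2 each. Irf1 had 1, in the same triplet (1.82, SE 0.42, adjusted p = 0.000606). Irf8 had 2, both negative, in PAM_LPS_Zymosan (-2.40, SE 0.55, adjusted p = 0.00377) and PAM_LPS_cGAMP (-1.99, SE 0.50, adjusted p = 0.0178). The first lost its call without every replicate 2 (range over alternatives -3.16 to -1.53) and the second in 4 of 9 alternatives.

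Pairs above both of their single ligands were fewer. Of 168 member values 6 were above both and 0 below, with edgeR (3.57%, against 0.831% for all genes), 3 of Irf7 and 3 of Irf8, where a call needs both differences to pass, so that the weaker test decides. The smaller of both log2 differences of Irf8 was 1.48 in PAM_LPS (adjusted p = 8.06e-10), 1.08 in LPS_Zymosan (adjusted p = 0.00016) and 1.10 in LPS_CpGB (adjusted p = 6.99e-05). The PAM_LPS and LPS_CpGB values kept their calls in all 12 alternatives, and LPS_Zymosan lost its call in 3 of 12, after thinning, without every replicate 2 and without LPS_Zymosan replicate 2 (0.69).

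Irf7 lay above both single ligands in PAM_LPS by 0.62 (adjusted p = 0.00223), in PAM_HMW by 0.99 (adjusted p = 6.74e-05), a call lost without every replicate 3 (0.68), and in HMW_Zymosan by 0.70 (adjusted p = 0.0402). In PAM_HMW it stood at 723, 577 and 662 CPM, with no overlap with PAM (210 to 294) or HMW (181 to 421). The HMW_Zymosan call was lost in 7 of 12 alternatives, among them without HMW_Zymosan replicate 1 (0.74) or 3 (0.61), and the PAM_LPS call in 6, among them without PAM_LPS replicate 2 (0.55) or 3 (0.50).

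Plasmacytoid dendritic cells use Irf7 and Irf8 heavily. The summed level of their markers was 189 CPM in Ctrl, lowest in Zymosan at 155 and highest in PAM_LPS at 1169, the group highest in Irf7 and Irf8, while Irf7 was lowest in Ctrl and Irf8 in PAM. Only 2 of the 5 markers were detected in most libraries, Bst2 and Tcf4, and Bst2 is itself induced by interferon. Tcf4, a transcription factor of these cells, was at 49.9 CPM in Ctrl (11 UMIs) with a median of 131 over groups, and like the sum it was lowest in Zymosan (23.1) and highest in PAM_LPS (194). The defining markers Siglech and Ly6d had 35 and 37 UMIs over all libraries and Ccr9 had 89, so the sum rests mainly on Bst2 and Tcf4. Unlike those, Siglech was highest in Ctrl, at 9.11 CPM from 2 UMIs, with a median of 0 over groups. The cDC1 markers, known for their dependence on Irf8, had 2 of 5 members detected in most libraries (Xcr1 and Batf3), and summed to 118 CPM in Ctrl, the highest of all groups, with a median of 48.2 over groups. Most of that sum was Batf3, at 89.1 CPM in Ctrl (19 UMIs) against a median of 16.2 over groups, while Xcr1, the more lineage-specific gene, was at 25.1 CPM in Ctrl (6 UMIs) against 29.6. The markers of cDC2 cells, which use Irf4, had 2 of 4 detected in most libraries and summed to 1189 CPM in Ctrl, 283 in Zymosan_cGAMP_CpGB, the lowest, and 1819 in PAM, the highest. This sum was nearly all Sirpa, which macrophages also express and which held 259 UMIs in Ctrl, where Cd209a, Mgl2 and Clec10a had 0, 1 and 1. Macrophage markers summed to 2806 CPM in Ctrl, also the highest, and to 848 in LPS_cGAMP_CpGB. Their members went different ways. Csf1r, the largest, was at 2001 CPM in Ctrl against a median of 658 over groups, and Fcgr1 at 70.7 CPM against 278. The part of these cell types in the Irf changes was not tested.

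Of the ligand genes upstream of Irf7 and Irf9, Ifnb1, the type I interferon that Irf3 and Irf7 switch on, was the 1 of 14 interferon genes with enough counts to test. It stood at 12 CPM in Ctrl (3 UMIs), 250.98 ± 8.63 with SeV and 196 ± 78.8 with cGAMP (SD, n = 3), with adjusted p of 1.91e-10 and 5.73e-08 by edgeR. With LPS it was at 13.4 CPM and with CpGB at 22.5 CPM (adjusted p = 0.858 and 0.682). On average over the 22 backgrounds, however, Ifnb1 was called higher with both, by 0.79 with LPS (adjusted p = 2.6e-09) and 0.87 with CpGB (adjusted p = 1.47e-06), and by 2.60 with SeV and 3.29 with cGAMP. Across the 64 groups the log2 level of Ifnb1 had a Pearson correlation of 0.77 with Irf1, 0.66 with Irf2, 0.65 with Irf5, 0.61 with Irf7, 0.59 with Irf8, 0.43 with Irf9, -0.05 with Irf4 and -0.49 with Irf3, given as a description of groups that share ligands and depth.

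The counts of the pathway lists are read against all tested genes, of which 13.9% were called with PAM, 24.2% with LPS, 0.975% with HMW, 6.25% with Zymosan, 15.6% with SeV, 17.6% with cGAMP and 17% with CpGB, in either direction. Among 10 interferon receptor, kinase and Stat genes, all tested, 5 were higher and 1 lower with LPS and with SeV, 4 and 1 with PAM and with cGAMP, 3 and 1 with CpGB, 2 and 0 with HMW and 3 and 0 with Zymosan. Stat2, a partner of Irf9, was higher with every single ligand, by 3.06 with LPS and 1.20 with Zymosan (log2 fold changes). Jak2, a receptor kinase, was higher by 2.33 with LPS and 1.90 with PAM. Stat2 was thus called with Zymosan, where the log2 value of Irf9 was 0.41 (SE 0.44, adjusted p = 0.678).

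Of 24 sensors, adaptors and kinases that act upstream of Irf3, Irf5 and Irf7, 20 were tested, with 8 higher and 1 lower with LPS, 7 and 1 with SeV and with CpGB, 7 and 0 with cGAMP, 4 and 1 with PAM, 2 and 0 with HMW and 1 and 0 with Zymosan. The RNA sensor genes Ifih1 and Ddx58 were higher by 3.68 and 3.45 with SeV and by 3.60 and 3.45 with LPS. Clec7a, the receptor of beta-glucan, was lower by -1.86 with PAM and had -0.16 with SeV. In this list the median log2 fold change of the tested genes was 1.23 with LPS and 1.24 with cGAMP, where that of all tested genes was -0.06 and -0.09. Of all tested genes 24.2% were called with LPS and 17.6% with cGAMP.

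Of 7 tested Irf-binding proteins and regulators, 4 were higher and 1 lower with LPS and with CpGB, 3 and 1 with SeV and with cGAMP, 2 and 0 with PAM and none with HMW or Zymosan. Of all tested genes 24.2% were called with LPS, 17% with CpGB and 13.9% with PAM. Usp18 and Socs1, brakes on the interferon receptor, were higher by 2.82 and 4.53 with SeV, and Socs3, a brake on Stat3, by 2.93 with PAM but had 0.30 with SeV. Of 6 tested DNA-binding partners of Irf4 and Irf8, 2 were higher and 2 lower with LPS and with CpGB, 1 and 1 with PAM, SeV and cGAMP, and none with HMW or Zymosan. Among them Batf2 was higher by 2.75 with LPS and 2.07 with SeV, Jund was lower by -1.39 with SeV, and Junb had no call with any single ligand.

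Downstream, all 14 interferon response genes tested were higher with LPS, SeV, cGAMP and CpGB, with medians of 3.91, 3.84, 4.28 and 2.49 on the log2 scale, 4 were higher with HMW, 2 with PAM and none with Zymosan (medians 1.01, 0.55 and 0.67). The median of all tested genes lay between -0.09 and 0.03 with every single ligand. Rsad2, Cxcl10 and Mx1, an antiviral enzyme, a chemokine and an antiviral GTPase, were higher by 4.22, 4.86 and 3.71 with cGAMP. Of 9 tested genes known to need Irf1, 7 were higher with LPS and with CpGB, 6 with SeV and with cGAMP, 3 with PAM, 1 with HMW and none with Zymosan, where 24.2% of all tested genes were called with LPS and 13.9% with PAM. Gbp2, Gbp3 and Tap1 were higher by 1.94, 1.70 and 1.10 with PAM, where Irf1 itself had no call (log2 fold change -0.19, SE 0.36, adjusted p = 0.795 by edgeR). The part of Irf1 in these changes was not tested.

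The likeness of each member to other genes was measured over the 64 group means of log2 CPM, as a description of groups that share ligands and depth. The 3 genes most like Irf7 were Ifi47, Tap1 and Phf11b, each with a Pearson correlation of 0.98, and those most like Irf1 were Cmpk2 (0.96), Rsad2 (0.95) and Il15ra (0.95). Irf8 was most like Bfar (0.90), Fam26f (0.89) and Il15 (0.88), and Irf5 like Rgs2 (0.86), Acer3 (0.81) and Cited2 (0.81). For Irf2 the nearest were I830012O16Rik (0.84), Zc3h7a (0.83) and Ifit3 (0.82), and for Irf9 Ddx58 (0.78), AW112010 (0.78) and Dtx3l (0.78). For Irf3 and Irf4 the nearest genes were Ptpn7 (0.60) and Rai14 (0.56).

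Among themselves, Irf1 and Irf7 were the most alike (0.85), followed by Irf7 and Irf8 (0.82) and Irf1 and Irf2 (0.76). Irf3 ran opposite to Irf1 (-0.54) and to Irf7 (-0.47), and Irf4 had correlations of -0.43 with Irf2 and Irf5. The share of the variance of log2 CPM that lay between groups was 95.8% for Irf7, 92.7% for Irf1, 88.7% for Irf8 and 86.9% for Irf5, but 63.3% for Irf2, 59.4% for Irf9, 51.5% for Irf3 and 41.5% for Irf4, the members with the fewest UMIs.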

How the data were processed

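Expression was measured in mouse bone marrow-derived dendritic cells, in 3 libraries of each of 64 groups, from pooled template-switching cDNA made into Nextera XT libraries. The authors deposited UMI counts per gene and library as whole numbers in 1 table, per the file headers. The submitters' processing notes name BWA 0.7.15 and the mm10 build. Gene annotation, UMI collapsing and the handling of reads that fit several genes are not given in the sources used here.

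Counts were analysed with edgeR 4.0.16 in R 4.3.3. Genes with low counts were removed by group (filterByExpr), which kept 4720 of 23481 genes and 95.7% of UMIs, libraries were scaled by TMM, and 1 quasi-likelihood model was fitted to all groups (128 residual degrees of freedom, common biological coefficient of variation 10.3%). P-values were adjusted by Benjamini-Hochberg over all genes of a contrast. CPM values are TMM-scaled, except those of the cell type markers, which are scaled by the library total alone. The log2 CPM used for correlations has a prior count of 2. Calls against Ctrl and between single ligands needed an adjusted p under 0.05 and a log2 change of 1, average effects and added ligands 0.5, and interactions and pairs above or below both single ligands no minimum. The fit was tested on simulated data. Every library has 1 group in the labels, and no sample was left out.

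Named genes outside the family were the 3 with the highest correlation to each member over group means, and genes of lists on the pathway and its targets. The members and the lists were chosen with earlier results of these data known. Promoter sequences were matched by symbol, for 8 of 8 members. Alternatives were RLE size factors, library size alone, no filter, thinning to the smallest library, DESeq2 1.42.0, a replicate block, the libraries of a ligand and Ctrl alone, no fold threshold, leaving out each replicate number, and leaving out each library of Ctrl and of the single ligands. Leaving out single libraries of pairs above both ligands and the 2 libraries that stood apart was added after seeing the data. Some items are not reported here.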

Additional observations from a re-analysis of the deposited data

Results flagged for a closer look

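The same ligand moved the same gene in opposite directions when added to different single ligands in 6 pairs of steps, from 4 of 56 combinations of a member and a ligand (7.14%). Over all tested genes such steps occurred in 0.829% of combinations. Each step passed an adjusted p under 0.05 (edgeR) with a log2 change of at least 0.5. The steps were picked for their opposite signs, and steps of a gene share libraries, so the difference was not tested. Steps onto pairs also held calls in both directions, for Irf7 with cGAMP (7 higher, 1 lower), CpGB (2 and 1) and HMW (1 and 1), for Irf2 with LPS (1 and 2) and for Irf5 with LPS (1 and 5).

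For Irf7, PAM gave a log2 change of 0.62 (SE 0.14) onto LPS and of -0.95 (SE 0.19) onto CpGB, a difference of 1.57 (SE 0.24). Onto HMW it gave 0.99 (SE 0.19), which differs from the step onto CpGB by 1.94 (SE 0.27). As calls above both single ligands, the same values were kept in 6 of 12 alternatives for PAM_LPS and in 11 of 12 for PAM_HMW. In PAM_CpGB the libraries stood at 401, 577 and 504 CPM, below all libraries of CpGB alone.

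Zymosan gave Irf7 a log2 change of 0.70 (SE 0.20) onto HMW and of -0.84 (SE 0.28, adjusted p = 0.0426 by edgeR) onto PAM, a difference of 1.54 (SE 0.34). As a call above both single ligands, the HMW_Zymosan value was kept in 5 of 12 alternatives and ranged from 0.29 to 1.14. Onto SeV, Zymosan gave Irf7 a change of -0.61 (SE 0.17), which differs from the step onto HMW by 1.31 (SE 0.26). Without replicate 3 of Zymosan_SeV the step onto SeV was -0.58, nearly the same, but its adjusted p was 0.0946, and the call was also lost after thinning and without every replicate 2 or 3.

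CpGB gave Irf1 a log2 change of 0.67 (SE 0.23, adjusted p = 0.0308 by edgeR) onto Zymosan and of -0.64 (SE 0.18) onto SeV, a difference of 1.31 (SE 0.29). LPS gave Irf5 a change of 0.58 (SE 0.18) onto Zymosan and of -0.64 (SE 0.17) onto cGAMP, a difference of 1.22 (SE 0.25).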

How the results depend on the processing

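Without a minimum size, 35 average effects on members were called in place of 12. After thinning to the smallest library the calls were 101 of added ligands (195 with all reads), 11 of pair interactions (22), 3 of pairs above both single ligands (6), 30 between single ligands (48) and 7 of triplet interactions (12). Leaving out a replicate number or a single library gave 13 to 18 calls of single ligands against Ctrl (16 with all), 58 to 77 of pairs (72), 111 to 143 of triplets (140), 11 to 14 of average effects (12), 130 to 172 of added ligands (195), 16 to 23 of pair interactions (22), 3 to 6 of pairs above both (6), 44 to 45 between single ligands (48) and 7 to 12 of triplet interactions (12). The lowest count came without every replicate 3 for all of these except average effects, and for those between single ligands also without every replicate 1. Fewer libraries or UMIs are by construction part of these settings.

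DESeq2 called 12 single-ligand values, 66 pairs and 127 triplets. Calls present under all alternatives run were 9 of 16 for single ligands, 9 of 12 for average effects, 10 of 22 for pair interactions, 6 of 12 for triplet interactions and 2 of 6 for pairs above both. Thinning reversed 1 called pair value, Irf2 in LPS_cGAMP against Ctrl (1.45 with all UMIs), and 1 called step, Irf1 with HMW onto PAM_Zymosan. With library size alone the median of all genes moved by -0.296 to -0.031 against Ctrl for single ligands, and by -0.539 to -0.255 for triplets. No member value that was a call, in the main fit or in the alternative, changed direction under RLE factors, library size alone or DESeq2.

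The labels do not say that a replicate number pairs libraries. Deviations of same-numbered libraries had a mean correlation of 0.0083 (-0.0041 between different numbers), while 167 libraries correlated best with their own number, a hint from the data and not from the design. With a replicate block, calls were 16 for single ligands, 73 for pairs, 140 for triplets, 12 for averages, 202 for added ligands, 22 for pair interactions, 6 for pairs above both, 48 between single ligands and 14 for triplet interactions. Depth limits Irf2, Irf3, Irf4 and Irf9 most, with 7, 18, 7 and 16 UMIs in Ctrl.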
